A study of Mus musculus with 10 samples.

Results

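The voltage-gated and related cation channels of the heart were followed in mouse cardiac fibroblasts, in cardiomyocyte-like cells made from them, and in primary cardiomyocytes. The genes were chosen by symbol alone, as every gene of the deposited count table whose symbol begins with Kcn and a further letter, Scn and a digit, Cacna, Cacnb, Cacng, or Hcn and a digit, leaving out Kcnc4. This gave 129 of 21513 genes. Of these, 101 passed the filter on low counts and were tested. The other 28 held between 2 and 82 counts over the 10 libraries together and reached no more than 0.976 CPM (counts scaled to the library's total and by TMM) in any library. Among them were Cacna1f, Cacna1i, Cacng1, Cacng2, Cacng3, Cacng4, Cacng5, Kcna1, Kcna10, Kcnd3os, Kcne2, Kcng1, Kcng3, Kcng4, Kcnh5, Kcnh8, Kcnj1, Kcnj16, Kcnj9, Kcnk1, Kcnk12, Kcnk18, Kcnk9, Kcnmb4os2, Kcns2, Scn3a and Scn9a. Kcnd3os and Kcnmb4os2 are noncoding RNAs at channel loci. No member was without a count in every library.

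The 10 libraries of polyadenylated RNA formed 5 groups of 2, all from primary cells of wild-type mouse hearts taken between postnatal days 1 and 3, with the strain not given in the sources used here. Cardiac fibroblasts (CF) were collected at day 14. Induced cardiomyocyte-like cells (iCM) carried MGT (Mef2c, Gata4 and Tbx5, transcription factors of the developing heart) and were collected at day 14 after dimethyl sulfoxide (DMSO, the solvent), ZLN005 (known to raise transcription of Ppargc1a, the gene of PGC1α) or GW501516 (which activates PPARδ, a nuclear receptor). Primary cardiomyocytes (CM) were collected at day 3. The titles of the CM samples were used for their group, although their cell type and treatment fields repeat the fibroblast entries. Titles of the CF samples name neither a vector nor DMSO, so the factors, the vector and the solvent cannot be told apart in iCM against CF. Day and cell type cannot be told apart in any comparison with CM. Doses, treatment times and any pooling of animals are not stated in the sources used here. Whether replicate libraries stem from separate animals or cultures is not stated, so the p-values cover the spread between these libraries and no more.

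The heartbeat is carried by these channels in sequence. Sodium channels give the upstroke of the ventricular action potential, L-type calcium channels hold its plateau and trigger contraction, and potassium channels of several families end it and set the resting potential. T-type calcium channels and the HCN channels, which open on hyperpolarization, carry pacemaker current in the sinus node and are prominent in the fetal and newborn heart. Most pores work with auxiliary subunits that set their trafficking and gating.

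Total counts ran from 39065969 to 61886463 per library, and counting error is small for genes above a few CPM. Summed CPM of 8 cardiomyocyte markers was 327 and 500 in the CF libraries, 4108 and 4202 in DMSO iCM, 6492 and 6957 in ZLN005 iCM, 7152 and 7216 in GW501516 iCM, and 22749 and 22689 in CM. Tnnt2 alone gave 3068 and 3208 CPM of the sums in DMSO iCM. In iCM with DMSO against CF, 6 of the 8 were higher and 2, Myl2 and Myl3, lower at an adjusted p below 0.05. Mean Myl2 was 8.27 CPM in CF, 5.30 in DMSO iCM, 1.28 with ZLN005, 1.31 with GW501516 and 1520 in CM. Mean Myl3 was 4.46, 1.92, 0.459, 0.369 and 726 CPM in the same order. Summed CPM of 7 fibroblast markers was 22355 and 25214 in CF and 11336 and 11285 in CM, so the CM libraries also held RNA of these genes. Col1a1 and Col1a2 gave most of the sum in CM, with means of 5175 and 3699 CPM. In CM against CF, 5 of the 7 were called lower and 2, Postn and Thy1, higher. Pdgfra, Dcn and Lum averaged 104, 196 and 119 CPM in CM against 637, 750 and 339 in CF. The CF replicates differed more from each other than any other pair, with a chi-square per degree of freedom of 61.7 against 3.41 to 6.53 elsewhere. The 10 macrophage markers summed to 2863 CPM in CF replicate 1 and 484 in CF replicate 2. In bulk RNA, fewer cells of a type and less RNA per cell cannot be told apart. All p-values below are adjusted over the 15740 genes tested by edgeR, a gene is called at an adjusted p below 0.05, and log2 changes are given ± their standard error.

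The channel genes took a larger share of all counts in CM than in the other groups. Their share was 0.0855% and 0.0815% in the CF libraries, 0.0986% and 0.0955% in DMSO iCM, 0.113% and 0.113% in ZLN005 iCM, 0.104% and 0.105% in GW501516 iCM, and 0.176% and 0.167% in CM. The 10 values put CF lowest and CM highest without overlap. Between 39 and 44 of the 129 genes reached 1 CPM in CF, between 48 and 53 in the iCM libraries, and 55 in both CM libraries. Per kilobase of exon, mean levels in CM were 32.8 CPM per kb for Kcnj5 and 20.5 for Kcnh2, with Kcnj3 just below it and Cacna2d1 at 16.9. In CF, Cacnb3 stood at 20.4 and Kcnab1 at 11.9 CPM per kb. In iCM with DMSO, Cacnb3 stood at 23.2, Kcnj5 at 21.0, Cacna2d1 at 13.9 and Cacna1a at 8.86 CPM per kb.

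Between CM and CF, 42 of the 101 tested channel genes were higher in CM and 31 were lower, 72.3% called, while 70.7% of all tested genes were called (34.5% higher, 36.2% lower). The libraries of these groups did not overlap for 81 channel genes, and for 84.2% of all tested genes. In iCM with DMSO against CF, 25 were higher and 18 lower, 42.6% called, against a background of 39.3% (19.9% higher, 19.5% lower), and the libraries did not overlap for 66 channel genes and 67.3% of all. Between CM and iCM with DMSO, 37 were higher in CM and 28 lower, 64.4% called, against 69.7% of all genes (34.1% higher, 35.7% lower), with no overlap for 80 channel genes and 86.5% of all. These shares lie near the background. The median log2 change of the tested members was 0.27 in CM against CF, 0.09 in iCM with DMSO against CF and -0.00 in CM against iCM with DMSO, and the medians over all genes were -0.02, -0.01 and -0.03.

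The cardiac current genes, a list of 30 members that carry the named currents of the heart, split more unevenly in the comparisons with CM. In CM against CF, 22 were higher and 6 lower, 93.3% called against 70.7% of all genes, with a median log2 change of 2.38. In iCM with DMSO against CF, 10 were higher and 6 lower, 53.3% called against 39.3%, with a median of 0.61. In CM against iCM with DMSO, 22 were higher and 6 lower, 93.3% called against 69.7%, with a median of 2.25. Scn4b and Kcna5 were not called between CM and CF, and Scn4b and Kcnj8 were not called between CM and iCM with DMSO. The list was chosen for its role in heart muscle and with earlier results of these data known.

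**Figure D1:**
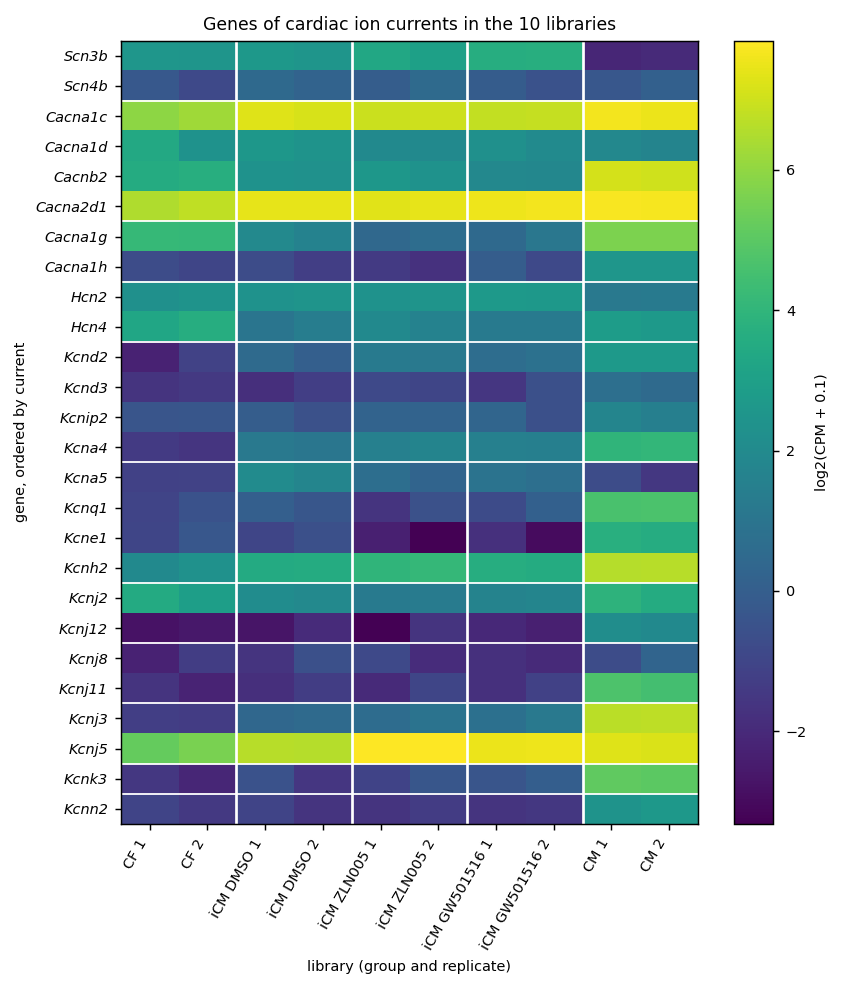
Level of 26 of the 30 cardiac current genes in each of the 10 libraries, as log2(CPM + 0.1) on the colour scale, with rows ordered by current and white lines between currents and groups. Cacnb2, Kcnh2, Kcnj3, Kcnj11 and Kcnk3 are bright in the CM columns, while Kcnj5 is bright in the ZLN005 and GW501516 columns as well.

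Among the sodium channel pores, Scn10a is known mainly from sensory neurons. Scn10a stood at 0.252 and 0.164 CPM in the CF libraries, 2.25 and 2.72 in DMSO iCM, 3.07 and 2.62 in ZLN005 iCM, 2.10 and 2.06 in GW501516 iCM, and 16.7 and 15.9 in CM. CF lay near 0.2 CPM, all iCM libraries lay above CF, and CM stood far above every iCM library. It rose in iCM with DMSO against CF (log2 change 3.56 ± 0.23, adjusted p = 5.43e-07) and was higher in CM than in iCM with DMSO (2.71 ± 0.18, adjusted p = 2.53e-07).

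Scn7a encodes a sodium channel that senses extracellular sodium rather than voltage. For Scn7a the CPM values were 58.5 and 59.5 in the CF libraries, 7.39 and 7.88 in DMSO iCM, 9.09 and 8.52 in ZLN005 iCM, 12.5 and 13 in GW501516 iCM, and 3.32 and 3.66 in CM. CF stood far above every other library, and GW501516 was the highest of the iCM groups. Scn7a fell in iCM with DMSO against CF (log2 change -2.95 ± 0.08, adjusted p = 8.54e-10). Scn2a, a pore known mainly from brain, fell between the same groups (-0.74 ± 0.11, adjusted p = 3.20e-04) and was lower again in CM (-0.99 ± 0.12, adjusted p = 2.24e-05). Scn11a, a pore of nociceptive neurons, stayed below 1 CPM in every library, rose in iCM with DMSO against CF (2.13 ± 0.53, adjusted p = 0.00865) and was lower in CM than in iCM with DMSO (-2.79 ± 0.60, adjusted p = 0.00183). The rise was not called without DMSO replicate 2 (adjusted p = 0.0612).

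Scn3b encodes a sodium beta subunit, a protein that modifies gating of the pore. The levels of Scn3b were 5.76 and 5.53 CPM in the CF libraries, 6.03 and 5.48 in DMSO iCM, 10.3 and 8.06 in ZLN005 iCM, 12.3 and 12.7 in GW501516 iCM, and 0.133 and 0.153 in CM. CM was close to 0 here, and Scn3b was lower than in iCM with DMSO (log2 change -5.31 ± 0.22, adjusted p = 8.32e-09). Its level in iCM with DMSO did not differ detectably from CF (0.03 ± 0.14, adjusted p = 0.897). Scn4b, a further beta subunit, ran from 0.459 to 1.33 CPM and was not called in these comparisons.

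Cacna1c encodes Cav1.2, the pore of the ventricular L-type calcium current. In CF, Cacna1c was at 62 and 75.1 CPM, followed by 158 and 146 in DMSO iCM, 123 and 126 in ZLN005 iCM, 112 and 116 in GW501516 iCM, and 198 and 181 in CM. CF was lowest and CM highest, with the iCM groups between them and DMSO above either compound. The gene rose in iCM with DMSO against CF (log2 change 1.15 ± 0.08, adjusted p = 1.34e-06). CM stood only 1.25-fold above iCM with DMSO (0.32 ± 0.08, adjusted p = 0.00453), and that call was lost without CM replicate 1 (adjusted p = 0.0526). Cacna1d, the pore of the L-type current of the sinus node, was lower in CM than in CF (-1.20 ± 0.29, adjusted p = 0.00337).

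The L-type auxiliary subunits did not move as a unit. Cacnb2, the main beta subunit of the cardiac channel, was low in every group but CM. Cacnb2 stood at 11.6 and 12.6 CPM in the CF libraries, 5.12 and 4.88 in DMSO iCM, 5.92 and 5.03 in ZLN005 iCM, 3.62 and 3.49 in GW501516 iCM, and 138 and 129.7 in CM. Cacnb2 fell in iCM with DMSO against CF (log2 change -1.28 ± 0.09, adjusted p = 8.65e-07) and was higher in CM than in iCM with DMSO (4.74 ± 0.09, adjusted p = 3.74e-11). Cacna2d1, the alpha-2-delta subunit that carries the channel to the membrane, rose in iCM with DMSO (0.80 ± 0.07, adjusted p = 7.59e-06), and the iCM groups held 82%, 79.3% and 93% of the mean CM level in the order DMSO, ZLN005 and GW501516. Cacnb3, a beta subunit of brain and smooth muscle channels, ranged from 77.3 to 86.5 CPM in CF, from 92.3 to 105 in the iCM libraries and from 60.2 to 60.9 in CM. The rise of Cacnb3 in iCM with DMSO was small (log2 change 0.18 ± 0.05, adjusted p = 0.0208), and the call was lost with only the 2 groups compared (adjusted p = 0.115) and without CF replicate 1, DMSO replicate 1 or DMSO replicate 2 (adjusted p = 0.0536, 0.0841 and 0.0674).

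Cacna1g encodes the T-type pore Cav3.1, which in the heart serves pacemaking. For Cacna1g the CPM values were 17.5 and 17 in the CF libraries, 3.70 and 2.98 in DMSO iCM, 1.26 and 1.49 in ZLN005 iCM, 1.33 and 2.03 in GW501516 iCM, and 49.6 and 49.1 in CM. CM was highest, CF came next, and every iCM library lay below both, with the compounds below DMSO. Cacna1g fell in iCM with DMSO against CF (log2 change -2.36 ± 0.15, adjusted p = 5.65e-07) and was higher in CM than in iCM with DMSO (3.88 ± 0.16, adjusted p = 6.95e-09). Cacna1h, the other cardiac T-type pore, stayed below 1 CPM outside CM and reached 5.70 and 5.65 CPM there (3.77 ± 0.35, adjusted p = 3.88e-06 against iCM with DMSO).

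Hcn4, the main pacemaker channel of the sinus node, had its highest level in CF. The levels of Hcn4 were 9.59 and 12.2 CPM in the CF libraries, 1.94 and 2.56 in DMSO iCM, 3.86 and 3.03 in ZLN005 iCM, 2.27 and 2.28 in GW501516 iCM, and 7.21 and 6.24 in CM. The CM libraries lay below CF and above every iCM library. Hcn4 fell in iCM with DMSO against CF (log2 change -2.28 ± 0.20, adjusted p = 6.41e-06) and was higher in CM than in iCM with DMSO (1.58 ± 0.20, adjusted p = 4.19e-05). It was lower in CM than in CF (-0.70 ± 0.19, adjusted p = 0.00687), which was not called after removal of CM replicate 2 (adjusted p = 0.0537). Hcn2, the ventricular isoform, ran from 4.75 to 6.33 CPM outside CM and was 2.21 and 2.30 CPM in CM (-1.21 ± 0.14, adjusted p = 2.17e-05 against iCM with DMSO). Hcn3 was not called in any of these comparisons.

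The transient outward current, which gives early repolarization and is large in rodent ventricle, is carried by Kcnd2, Kcnd3 and Kcna4 with the auxiliary subunit Kcnip2. In CF, Kcna4 was at 0.268 and 0.230 CPM, followed by 2.18 and 1.97 in DMSO iCM, 2.85 and 3.22 in ZLN005 iCM, 2.80 and 2.71 in GW501516 iCM, and 15.9 and 16.7 in CM. CF lay near 0.2 CPM, the iCM libraries between 1.97 and 3.22, and CM far above them. Kcna4 rose in iCM with DMSO against CF (log2 change 3.05 ± 0.19, adjusted p = 3.65e-07) and was higher in CM than in iCM with DMSO (2.97 ± 0.15, adjusted p = 3.41e-08). Kcnd2 did the same, with a log2 change of 2.29 ± 0.40 (adjusted p = 0.00108) in iCM with DMSO against CF and 2.47 ± 0.34 (adjusted p = 7.97e-05) in CM against iCM with DMSO. Kcnd3 and Kcnip2 were not called in iCM with DMSO against CF, with log2 changes of 0.07 ± 0.50 (adjusted p = 0.932) and 0.13 ± 0.36 (adjusted p = 0.807). Both were higher in CM than in iCM with DMSO (2.53 ± 0.46, adjusted p = 5.77e-04 and 2.03 ± 0.35, adjusted p = 4.29e-04).

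The delayed rectifiers, which end the action potential, included Kcnq1, Kcne1 and Kcnh2, whose human counterparts are mutated in long QT syndrome. Kcnh2 stood at 3.82 and 4.95 CPM in the CF libraries, 11.4 and 11.6 in DMSO iCM, 15.6 and 17.3 in ZLN005 iCM, 12.4 and 11.6 in GW501516 iCM, and 98.1 and 101 in CM. CF was lowest, the iCM groups lay between 11.4 and 17.3 CPM, and CM lay near 100 CPM. Kcnh2, the pore of the rapid component, rose in iCM with DMSO against CF (log2 change 1.39 ± 0.11, adjusted p = 2.74e-06) and was higher in CM (3.11 ± 0.10, adjusted p = 1.52e-09). For Kcnq1 the CPM values were 0.393 and 0.607 in the CF libraries, 0.931 and 0.685 in DMSO iCM, 0.223 and 0.582 in ZLN005 iCM, 0.483 and 0.978 in GW501516 iCM, and 25 and 25.2 in CM. Only the CM libraries exceeded 1 CPM for Kcnq1, the pore of the slow component (4.95 ± 0.36, adjusted p = 5.43e-07 in CM against iCM with DMSO). Its partner subunit Kcne1 was 13.2 and 12.1 CPM in CM and at most 0.722 CPM in any other library.

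Kcna5, which encodes Kv1.5, the pore of the ultrarapid current, did not share this order. The levels of Kcna5 were 0.346 and 0.361 CPM in the CF libraries, 4.09 and 3.32 in DMSO iCM, 1.56 and 1.11 in ZLN005 iCM, 1.81 and 1.58 in GW501516 iCM, and 0.508 and 0.256 in CM. CF and CM overlapped at low levels, and iCM with DMSO was higher than both. Kcna5 rose in iCM with DMSO against CF (log2 change 3.38 ± 0.33, adjusted p = 1.51e-05) and was lower in CM than in iCM with DMSO (-3.25 ± 0.34, adjusted p = 9.57e-06).

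Kcnf1 and Kcng2 encode silent subunits, which form no channel alone and modify pores of the Kv2 family. In CF, Kcnf1 was at 0.157 and 0.0328 CPM, followed by 2.35 and 2.36 in DMSO iCM, 7.46 and 8.18 in ZLN005 iCM, 4.08 and 5.95 in GW501516 iCM, and 21.8 and 20.1 in CM. CF was close to 0, every iCM library lay above it, and CM was highest. Kcnf1 rose in iCM with DMSO against CF (log2 change 4.57 ± 0.38, adjusted p = 3.94e-06) and was higher again in CM (3.15 ± 0.25, adjusted p = 1.04e-06). Kcng2 rose in iCM with DMSO against CF by 2.62 ± 0.31 (adjusted p = 7.13e-05) on the log2 scale and stood at 45.5 and 37.6 CPM in CM (4.04 ± 0.25, adjusted p = 1.76e-07 against iCM with DMSO). Kcnh7, an Erg-family pore, was 26.5 and 22.9 CPM in CM and at most 1.59 CPM elsewhere.

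Kcnj3 and Kcnj5 encode Kir3.1 and Kir3.4, which together form the acetylcholine-activated channel of the atrium and sinus node. Kcnj5 stood at 36.3 and 47.7 CPM in the CF libraries, 98.8 and 98.1 in DMSO iCM, 229 and 224 in ZLN005 iCM, 183 and 189 in GW501516 iCM, and 157 and 149.8 in CM. CF was lowest, iCM with DMSO came next, and both compound groups lay above CM. Kcnj5 rose in iCM with DMSO against CF (log2 change 1.23 ± 0.10, adjusted p = 2.83e-06) and was higher in CM than in iCM with DMSO (0.64 ± 0.09, adjusted p = 1.29e-04). For Kcnj3 the CPM values were 0.315 and 0.295 in the CF libraries, 1.23 and 1.33 in DMSO iCM, 1.46 and 1.80 in ZLN005 iCM, 1.64 and 2.16 in GW501516 iCM, and 104 and 105 in CM. Kcnj3 rose in iCM with DMSO against CF (log2 change 2.06 ± 0.19, adjusted p = 1.11e-05) yet every iCM library stayed below 2.2 CPM, and CM stood above 100 CPM (6.35 ± 0.13, adjusted p = 4.55e-11 against iCM with DMSO). The iCM groups thus held 64.1%, 148% and 121% of the CM level of Kcnj5 and 1.23%, 1.56% and 1.82% of that of Kcnj3, in the order DMSO, ZLN005 and GW501516. Of the exon bases of Kcnj3, 31.1% also lie in exons of the antisense gene Gm26794, and the strand setting of the counting is not given. Kcnj6, a further G protein-gated pore, rose in iCM with DMSO against CF (2.88 ± 0.38, adjusted p = 1.54e-04) and was 19.7 and 18.3 CPM in CM.

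**Figure D2:**
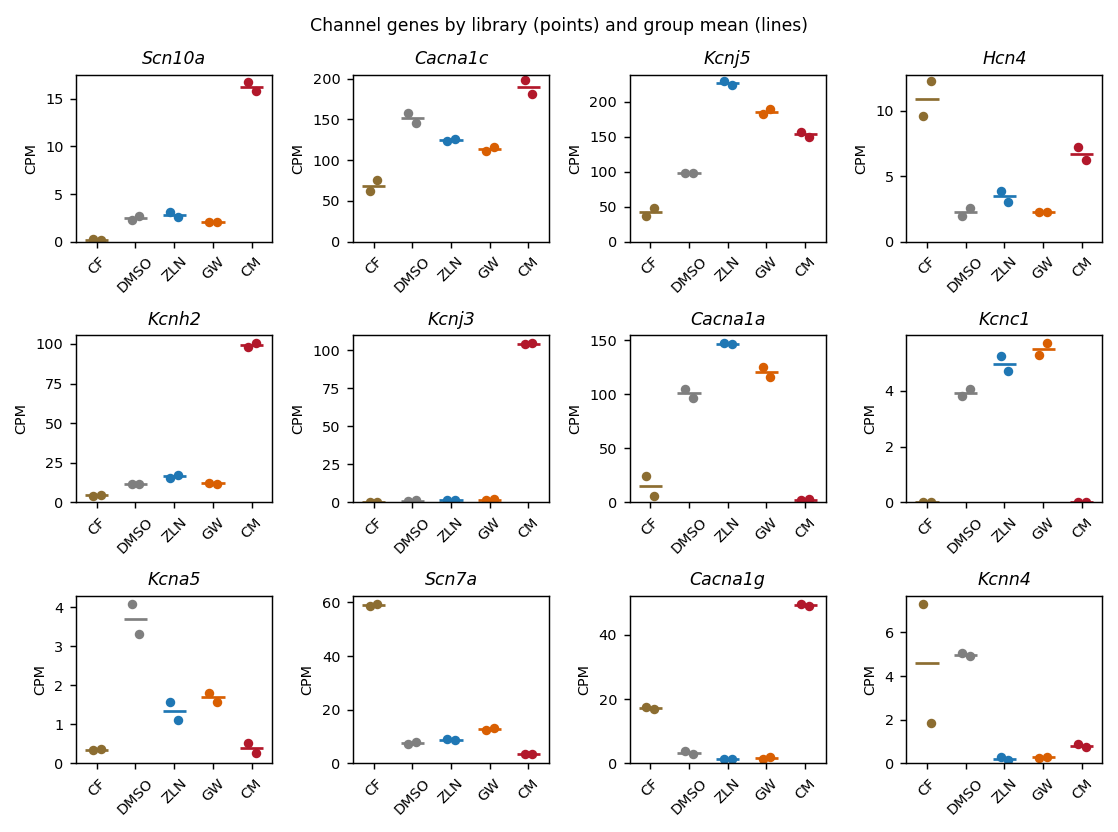
CPM of 12 channel genes in each library (points, 2 per group) with group means (lines), on a separate linear axis from 0 for each gene. Scn10a, Kcnh2 and Kcnj3 stand highest in CM, Cacna1a and Kcnc1 stand highest in the 3 iCM groups, and Scn7a stands highest in CF.

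The inward rectifiers that set the resting potential stayed low in iCM. The levels of Kcnj2 were 11.1 and 7.56 CPM in the CF libraries, 4.26 and 3.77 in DMSO iCM, 2.35 and 2.41 in ZLN005 iCM, 3.12 and 3.26 in GW501516 iCM, and 14.6 and 11.6 in CM. Kcnj2, the gene of Kir2.1, fell in iCM with DMSO against CF (log2 change -1.22 ± 0.19, adjusted p = 5.01e-04) and was higher in CM than in iCM with DMSO (1.71 ± 0.19, adjusted p = 1.84e-05). Kcnj12, the gene of Kir2.2, was 4.29 and 3.79 CPM in CM and at most 0.222 CPM elsewhere. Kcnj11 encodes Kir6.2, the pore of the ATP-sensitive channel of the ventricle. In CF, Kcnj11 was at 0.220 and 0.115 CPM, followed by 0.186 and 0.302 in DMSO iCM, 0.149 and 0.411 in ZLN005 iCM, 0.193 and 0.351 in GW501516 iCM, and 26.1 and 22.9 in CM. No iCM library reached 0.5 CPM, and the CM libraries lay above 20 CPM (6.64 ± 0.38, adjusted p = 8.31e-08 against iCM with DMSO). Abcc8 and Abcc9, the sulfonylurea receptors that complete such channels, stood at 40.4 and 40.6 CPM and at 33.6 and 33.7 CPM in CM, and below 1 CPM in every iCM library. Kcnj8, the other pore of this kind and a pericyte gene in the heart, stayed at or below 1.10 CPM throughout.

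The tandem-pore channel Kcnk3, a background potassium channel sensitive to acid, was 34.8 and 32.6 CPM in CM and at most 0.903 CPM elsewhere (6.31 ± 0.35, adjusted p = 7.54e-08 in CM against iCM with DMSO). Kcnk2, a stretch-sensitive background channel, was higher in CM than in iCM with DMSO (0.85 ± 0.13, adjusted p = 1.30e-04). Kcnk15 had no counts in either CM library. It held 225 counts in CF and 144 in iCM with DMSO, so it was at least 50.8-fold lower in CM than in CF and at least 39.2-fold lower than in iCM with DMSO, by a floor of 3 counts over the group that covers counting error only. Kcnn2, a small-conductance calcium-activated channel of atrium, was 5.15 and 6.11 CPM in CM and below 0.4 CPM elsewhere.

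Kcnab1 stood at 94.2 and 111 CPM in the CF libraries, 38.4 and 37.8 in DMSO iCM, 19.8 and 19.2 in ZLN005 iCM, 45.3 and 43 in GW501516 iCM, and 8.49 and 8.29 in CM. Kcnab1, a cytoplasmic beta subunit of Kv1 channels, was highest in CF and lowest in CM without overlap (-1.43 ± 0.07, adjusted p = 1.05e-07 in iCM with DMSO against CF). For Kcnt2 the CPM values were 31.8 and 33.8 in the CF libraries, 9.36 and 9.25 in DMSO iCM, 6.57 and 7.89 in ZLN005 iCM, 9.23 and 9.18 in GW501516 iCM, and 9.15 and 9.80 in CM. Kcnt2, a sodium-activated potassium channel, lay above 30 CPM in CF and below 10 CPM in all other libraries (-1.82 ± 0.10, adjusted p = 1.66e-07 in iCM with DMSO against CF). Kcnn3, a small-conductance calcium-activated channel, fell too, by 1.97 ± 0.17 (adjusted p = 5.63e-06) on the log2 scale. Kcna2, a Kv1 pore of axons, was 1.26 and 1.39 CPM in CF and at most 0.223 CPM elsewhere. Its fall in iCM with DMSO (-3.28 ± 0.75, adjusted p = 0.00553) was not called without DMSO replicate 2 (adjusted p = 0.0582). The 7 fibroblast markers also summed to less in iCM with DMSO, at 14416 and 14059 CPM against 22355 and 25214 in CF, with 5 of the 7 called lower and 2, Postn and Thy1, called higher, and their part in these falls was not tested.

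A few channels known mainly from neurons stood highest in the iCM groups and low in CM. Cacna1a encodes Cav2.1, the P/Q-type calcium channel of nerve terminals. The levels of Cacna1a were 24.6 and 5.51 CPM in the CF libraries, 105 and 97.2 in DMSO iCM, 147 and 147 in ZLN005 iCM, 126 and 116 in GW501516 iCM, and 2.65 and 2.74 in CM. Every iCM library lay above both CF libraries, which differed widely from each other, and CM lay below them all. Cacna1a rose in iCM with DMSO against CF (log2 change 2.74 ± 0.44, adjusted p = 5.50e-04) and was lower in CM than in iCM with DMSO (-5.23 ± 0.56, adjusted p = 1.15e-05). Kcnc1 encodes Kv3.1, a pore of fast-spiking neurons. In CF, Kcnc1 was at 0.0315 and 0 CPM, followed by 3.80 and 4.05 in DMSO iCM, 5.25 and 4.69 in ZLN005 iCM, 5.27 and 5.69 in GW501516 iCM, and 0 and 0 in CM. It held 2 counts in CF, 405 in iCM with DMSO and none in CM. The ratio of iCM with DMSO to CF was 244 with a 95% counting interval from 67.1 to 2021, and Kcnc1 was at least 110.2-fold lower in CM than in iCM with DMSO. The edgeR adjusted p was 6.50e-07 for the first comparison and 3.41e-07 for the second.

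Kcna6, a Kv1 pore of neurons, also rose in iCM with DMSO against CF (5.10 ± 0.34, adjusted p = 6.50e-07) and was lower in CM than in iCM with DMSO (-1.22 ± 0.25, adjusted p = 0.00145). Of its exon bases, 39.6% also lie in exons of Gm26673. Both comparisons use the same DMSO libraries. Unlike Cacna1a and Kcnc1, Kcna6 was called higher in CM than in CF, with CF at 6.59% of the mean CM level. With GW501516 it stood at 129% of the CM level, and that difference was not called. The 8 neuron markers in the table summed to 0.744 and 0.967 CPM in iCM with DMSO, 1.73 and 0.574 in CF and 2.10 and 2.35 in CM. Of the 8, 1 was at 0 in iCM with DMSO and none was at 0 in CM.

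**Figure D3:**
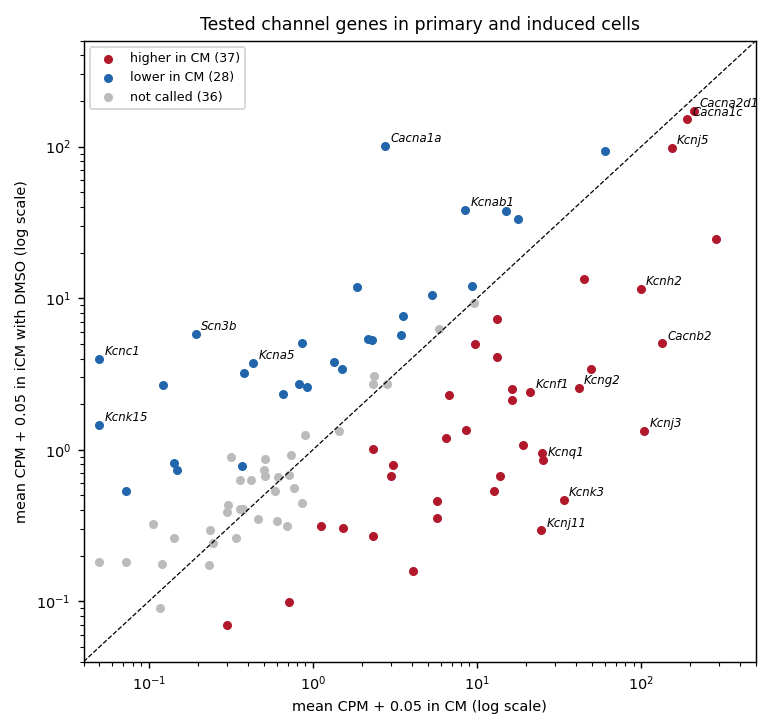
Mean level of the 101 tested channel genes in CM (x axis) and in iCM with DMSO (y axis), as CPM + 0.05 on log scales, with genes called higher in CM in red (37), lower in CM in blue (28) and not called in grey (36). The dashed line marks equal levels, with Cacna1a and Kcnc1 far above it and Kcnj11, Kcnk3, Kcnj3 and Cacnb2 far below it.

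Of the 22 cardiac current genes that were higher in CM than in iCM with DMSO, 11 stood below 10% of their mean CM level in iCM with DMSO, 8 stood between 10% and 50%, and 3 stood at 50% or more. With ZLN005 the counts were 11, 7 and 4, and with GW501516 they were 10, 9 and 3. The median was 10.1% with DMSO, 13% with ZLN005 and 11.9% with GW501516. Cacna1c, Cacna2d1 and Kcnj5 were the genes at 50% or more with DMSO. The 22 genes were chosen by their call against DMSO, which favours low values with DMSO, so the medians do not compare the groups evenly. These values describe the groups and were not tested.

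Promoters of members that rose or fell in iCM with DMSO are shown with the binding letters known for the 3 factors. The sequences are the 250 bases before a transcript start in RefSeq (GRCm38.p6), written 5′ to 3′ on the gene's strand. Capitals mark a match on either strand to 1 of 3 motifs, which do not overlap in these windows. The MEF2 motif has 10 bases with the middle 4 free. The motif of Gata factors was searched as the letters AGATAA. That of T-box factors was searched as AGGTGT. Kcnj5 (chr9:32344345-32344594, minus strand) and Kcnc1 (chr7:46396218-46396467, plus strand) rose in iCM with DMSO and hold no match:
Kcnj5: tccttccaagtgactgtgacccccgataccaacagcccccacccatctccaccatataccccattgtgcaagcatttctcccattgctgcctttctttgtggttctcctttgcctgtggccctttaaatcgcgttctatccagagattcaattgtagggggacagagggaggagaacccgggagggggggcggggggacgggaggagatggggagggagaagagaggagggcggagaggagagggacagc
Kcnc1: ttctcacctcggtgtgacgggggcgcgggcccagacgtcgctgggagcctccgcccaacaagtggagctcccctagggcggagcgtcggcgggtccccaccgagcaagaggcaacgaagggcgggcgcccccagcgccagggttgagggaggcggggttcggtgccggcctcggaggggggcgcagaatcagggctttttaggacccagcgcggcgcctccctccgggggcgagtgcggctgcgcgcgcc
Kcnj3 (chr2:55435720-55435969, plus strand) rose and holds a T-box match 38 bases before the start:
Kcnj3: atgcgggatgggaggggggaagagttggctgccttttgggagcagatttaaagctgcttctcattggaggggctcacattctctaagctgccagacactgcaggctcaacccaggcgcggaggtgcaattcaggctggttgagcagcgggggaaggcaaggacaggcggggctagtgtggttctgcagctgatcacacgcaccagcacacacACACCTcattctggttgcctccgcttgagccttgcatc
Hcn4 (chr9:58822699-58822948, plus strand) and Scn7a (chr2:66784911-66785160, minus strand) fell, and hold a T-box match 233 bases and a Gata match 116 bases before the start:
Hcn4: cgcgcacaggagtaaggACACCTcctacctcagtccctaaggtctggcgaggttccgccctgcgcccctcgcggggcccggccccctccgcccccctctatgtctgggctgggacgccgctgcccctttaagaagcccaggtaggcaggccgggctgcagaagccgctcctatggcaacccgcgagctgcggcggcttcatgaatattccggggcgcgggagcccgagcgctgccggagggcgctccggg
Scn7a: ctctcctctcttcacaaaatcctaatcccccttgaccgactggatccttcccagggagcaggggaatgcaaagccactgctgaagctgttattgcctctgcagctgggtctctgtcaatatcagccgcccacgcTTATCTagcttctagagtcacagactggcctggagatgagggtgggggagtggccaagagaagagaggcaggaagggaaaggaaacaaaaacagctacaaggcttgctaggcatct

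Promoters were found for 93 of the 129 members, 128 in all. Among all 32851 promoters, 3.20% held the MEF2 letters, 9.99% the Gata letters and 11.8% the T-box letters. Of 25 promoters (19 genes) of members that rose in iCM with DMSO against CF, 0, 0 and 1 held them. Of 19 promoters (14 genes) of members that fell, 0, 1 and 4 held them. A match is a description of letters in this window and nothing more.

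ZLN005 against DMSO in iCM gave 7 channel genes higher and 11 lower, 17.8% called, against 15.5% of all genes (6.64% higher, 8.84% lower), with libraries that did not overlap for 61 channel genes and 61.5% of all. GW501516 against DMSO gave 7 higher and 11 lower, 17.8% called, against 14.8% (7.8% higher, 6.96% lower), with no overlap for 66 channel genes and 61.3% of all. Both comparisons share the DMSO libraries. Among the 30 cardiac current genes, 5 were higher and 5 lower with ZLN005, and 3 were higher and 5 lower with GW501516, with median log2 changes of 0.10 and 0.11 against -0.00 and -0.01 over all genes.

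Kcnj5 rose with ZLN005 (log2 change 1.20 ± 0.09, adjusted p = 2.55e-05) and with GW501516 (0.92 ± 0.09, adjusted p = 1.53e-04). Both changes were called under every alternative tried, and the levels given above put all 4 compound libraries above both CM libraries. Kcnf1 rose with ZLN005 (1.73 ± 0.24, adjusted p = 0.00108) and with GW501516 (1.09 ± 0.25, adjusted p = 0.0146). The GW501516 call was lost without DMSO replicate 1, DMSO replicate 2 or GW501516 replicate 2 (adjusted p = 0.104, 0.0935 and 0.143). Scn3b rose with GW501516 (1.12 ± 0.14, adjusted p = 5.73e-04) and with ZLN005 (0.67 ± 0.14, adjusted p = 0.00999), the latter not called without DMSO replicate 2 or ZLN005 replicate 1 (adjusted p = 0.0839 and 0.1001). Its level in CM was near 0, so with either compound the gene lay further from CM than with DMSO. Scn7a, the highest pore of its family in CF, rose with GW501516 (0.74 ± 0.08, adjusted p = 2.30e-04) and was not called with ZLN005 (0.20 ± 0.08, adjusted p = 0.130).

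Kcnh2 rose with ZLN005 (0.52 ± 0.10, adjusted p = 0.00667), which was not called after removal of DMSO replicate 1 or ZLN005 replicate 2 (adjusted p = 0.0597 and 0.0625). The rise of Kcna4 with ZLN005 (0.55 ± 0.15, adjusted p = 0.0322) was lost under 10 of the 15 alternatives. Kcnj6 rose with ZLN005 (1.18 ± 0.28, adjusted p = 0.0183) and GW501516 (1.22 ± 0.28, adjusted p = 0.0171), calls lost under 4 and 3 alternatives, all of which left out a DMSO or compound library. Cacnb4, a beta subunit known mainly from brain, rose with GW501516 (1.03 ± 0.21, adjusted p = 0.00940), and Kcnj3 did so too (0.57 ± 0.15, adjusted p = 0.0297). These calls were lost under 3 and 6 alternatives.

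**Figure D4:**
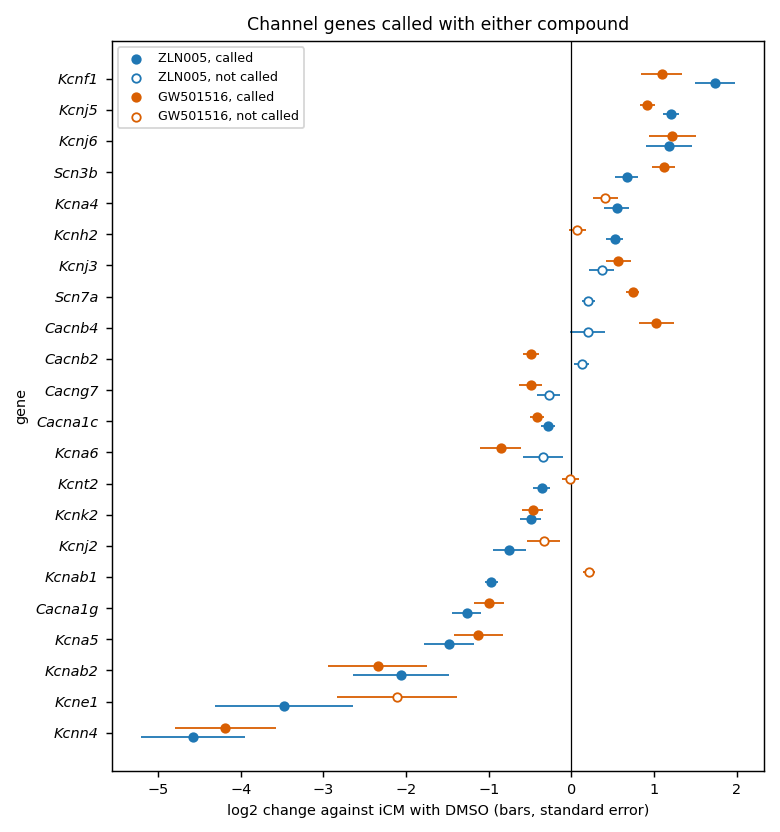
Log2 change of 22 channel genes against iCM with DMSO for ZLN005 (blue) and GW501516 (orange), with bars for the standard error, filled points for called changes and open points for others. Kcnj5 and Kcnf1 lie to the right and Kcnn4 to the left with both compounds, while Kcnab1 is called with ZLN005 and not with GW501516. Kcnj10, which had no counts with GW501516, is left out.

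Cacna1g fell with ZLN005 (-1.27 ± 0.18, adjusted p = 0.00116) and with GW501516 (-0.996 ± 0.18, adjusted p = 0.00481), the latter not called without DMSO replicate 1 (adjusted p = 0.0523). Cacna1c fell with GW501516 (-0.42 ± 0.08, adjusted p = 0.00743), which was not called after removal of DMSO replicate 1 or GW501516 replicate 1 (adjusted p = 0.0809 and 0.0813). Its smaller fall with ZLN005 (-0.28 ± 0.08, adjusted p = 0.0409) was lost under 9 alternatives. Kcnj2 was called lower with ZLN005, at 18.2% of the mean CM level against 30.6% with DMSO. Cacnb2 was called lower with GW501516, at 2.66% against 3.73%. Both calls were lost under some alternatives that left out a library. Kcnab1 fell with ZLN005 (-0.97 ± 0.08, adjusted p = 2.82e-05), called under every alternative, and was not called with GW501516. Kcna5 fell with ZLN005 (-1.48 ± 0.30, adjusted p = 0.00795) and GW501516 (-1.13 ± 0.29, adjusted p = 0.0284), calls lost under 2 and 4 alternatives that each left out a DMSO or compound library. Kcne1 fell with ZLN005 (-3.48 ± 0.84, adjusted p = 0.0190) from levels already under 1 CPM, which was not called without DMSO replicate 1, DMSO replicate 2 or ZLN005 replicate 2 (adjusted p = 0.0567, 0.0974 and 0.136). Without ZLN005 replicate 2 its log2 change was -2.26.

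Several falls lay in genes that were also high in CF replicate 1. Kcnn4 encodes the intermediate-conductance calcium-activated channel of blood and immune cells. Kcnn4 stood at 7.30 and 1.87 CPM in the CF libraries, 5.04 and 4.92 in DMSO iCM, 0.273 and 0.154 in ZLN005 iCM, 0.242 and 0.301 in GW501516 iCM, and 0.884 and 0.742 in CM. It fell with ZLN005 (-4.58 ± 0.63, adjusted p = 9.27e-04) and GW501516 (-4.19 ± 0.61, adjusted p = 0.00144), called under every alternative. For Kcnj10 the CPM values were 11.6 and 0.886 in the CF libraries, 2.94 and 2.32 in DMSO iCM, 0 and 0.137 in ZLN005 iCM, 0 and 0 in GW501516 iCM, and 0.0663 and 0.0767 in CM. Kcnj10, a glial inward rectifier, was at least 71.5-fold lower with GW501516 than with DMSO by the floor of 3 counts, with an edgeR adjusted p of 0.0189. Kcnab2, a Kv1 beta subunit, fell with ZLN005 (-2.06 ± 0.58, adjusted p = 0.0381) and with GW501516 (-2.34 ± 0.60, adjusted p = 0.0251). Kcnj10 was called lower with ZLN005 too (adjusted p = 0.0305). Its calls were lost under 6 alternatives with ZLN005 and 4 with GW501516, and those of Kcnab2 under 8 and 4, most of which left out a DMSO or compound library. All 10 macrophage markers were called lower with ZLN005 and 9 of 10 with GW501516, where all 10 lay below DMSO. Their sum was 745 and 775 CPM in DMSO iCM, 107 and 109 in ZLN005 iCM, and 106 and 106 in GW501516 iCM, and none was at 0 in any group. Their part in the falls of Kcnn4, Kcnj10 and Kcnab2 was not tested.

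Cacna1a depended on which libraries set the spread. Its log2 change was 0.54 ± 0.39 (adjusted p = 0.422) with ZLN005 and 0.26 ± 0.40 (adjusted p = 0.730) with GW501516, neither called, although both libraries of each compound lay above both DMSO libraries. Without CF replicate 1 the adjusted p was 7.02e-09 with ZLN005, and with only the 2 groups compared it was 5.29e-09. The model shares its estimate of spread between groups, and the CF libraries differed from each other at this gene by more than any other pair.

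ZLN005 and GW501516 were compared directly, with doses not given. Of the 101 channel genes, 3 were higher with ZLN005 and 2 lower, 4.95% called, against 5.06% of all genes (1.54% higher, 3.52% lower), with no overlap for 55 channel genes and 53.5% of all. Kcnab1 was lower with ZLN005 (log2 change -1.18 ± 0.08, adjusted p = 9.97e-06), and this call alone was kept under every alternative. Scn7a was lower with ZLN005 (-0.53 ± 0.08, adjusted p = 0.00316), which was not called after removal of ZLN005 replicate 2 (adjusted p = 0.0513). Cacnb2 was higher with ZLN005 (0.61 ± 0.10, adjusted p = 0.00525), which was not called after removal of GW501516 replicate 2 (adjusted p = 0.0626). Kcnh2 was higher too (0.45 ± 0.10, adjusted p = 0.0315), a call lost under 8 alternatives. The difference of Kcnj5 was not called (0.29 ± 0.09, adjusted p = 0.131), with a 95% interval from 0.08 to 0.49 on the log2 scale. It was called higher with ZLN005 under 5 alternatives with about the same log2 change, namely DESeq2 (adjusted p = 0.0105), no low-count filter (0.0125), only the 2 groups compared, and without CF replicate 1 or CF replicate 2.

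CM stood apart from the compound groups much as from DMSO. Against ZLN005, 39 channel genes were higher in CM and 27 lower, 65.3% called, against 67.9% of all genes (34.2% higher, 33.7% lower), with no overlap for 79 channel genes and 85.2% of all. Against GW501516, 37 were higher and 25 lower, 61.4% called, against 67.2% (33.7% higher, 33.5% lower), with no overlap for 78 channel genes and 84.9% of all. Of the 30 cardiac current genes, 21 were higher and 6 lower in each. Kcnj5 was lower in CM than with ZLN005 (-0.56 ± 0.09, adjusted p = 3.18e-04) and than with GW501516 (-0.28 ± 0.09, adjusted p = 0.0228), the latter not called without GW501516 replicate 1, GW501516 replicate 2, CM replicate 1 or CM replicate 2 (adjusted p = 0.0584, 0.101, 0.0575 and 0.118). Kcne1 was higher in CM by 8.18 ± 0.69 (adjusted p = 1.77e-06) on the log2 scale against ZLN005 and 6.81 ± 0.62 (adjusted p = 3.26e-06) against GW501516. Its mean level was close to 0 there, at 0.0154 and 0.0340 CPM per kb, so the sizes of these changes are uncertain. Cacna2d2, an alpha-2-delta subunit, was 16.1 and 11.6 CPM in CM and at most 0.893 CPM elsewhere. Kcnk13, a tandem-pore channel found in microglia, was lower in CM than with DMSO (-3.24 ± 0.76, adjusted p = 0.00311). It was also lower than with ZLN005 (-2.73 ± 0.76, adjusted p = 0.00886) and with GW501516 (-2.88 ± 0.76, adjusted p = 0.00671). The call against ZLN005 was lost without CM replicate 1 or CM replicate 2. The macrophage markers summed to 27.3 and 29.7 CPM in CM and to 107 and 109 with ZLN005, and their part in the level of Kcnk13 was not tested.

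**Figure D5:**
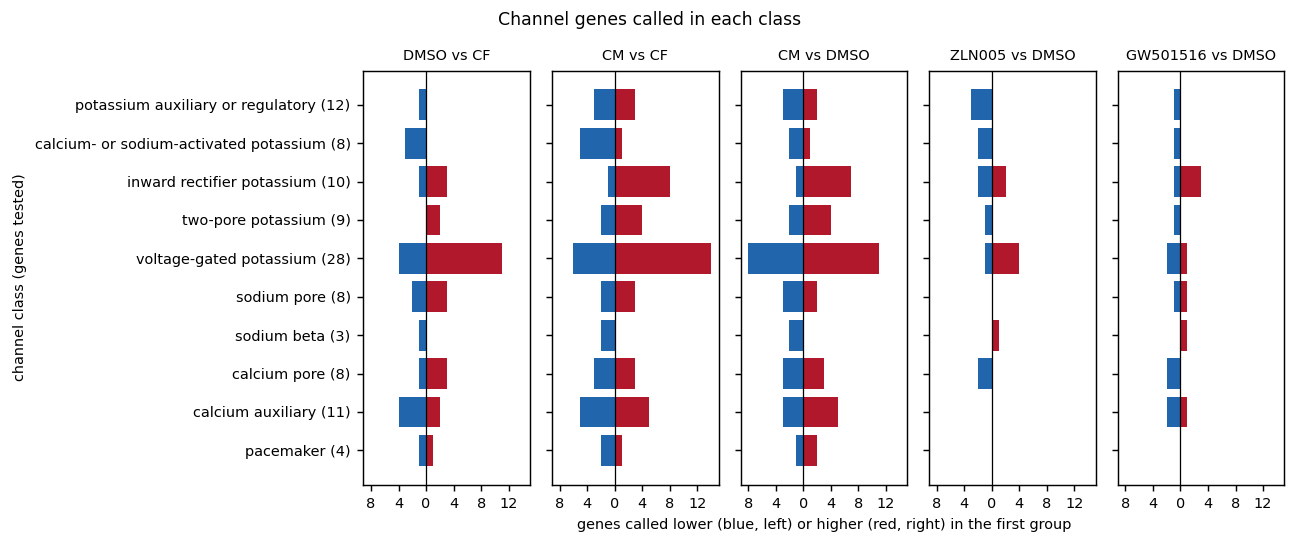
Number of channel genes called lower (blue, left of 0) and higher (red, right of 0) in the first group of each of 5 comparisons, by channel class with the number tested in brackets. Inward rectifiers are called mostly higher in CM, at 8 higher and 1 lower against CF, while calcium- or sodium-activated potassium channels are called mostly lower there, at 1 and 5.

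By class, 11 of 28 tested voltage-gated potassium genes rose and 4 fell in iCM with DMSO against CF. Of 10 inward rectifiers 3 rose and 1 fell, of 8 sodium pores 3 rose and 2 fell, and of 8 calcium pores 3 rose and 1 fell. Of 8 calcium- or sodium-activated potassium genes none rose and 3 fell, namely Kcnn3, Kcnt2 and Kcnma1, of which Kcnma1 was called with an adjusted p of 0.0462 and lost under 13 alternatives. Of 11 tested calcium auxiliary genes 2 rose and 4 fell. With 19.9% of all genes higher and 19.5% lower, classes of this size differ from the background by a few genes.

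The genes that work beside these channels were read from lists chosen in the same way. In iCM with DMSO against CF, 39.3% of all tested genes were called, 19.9% higher and 19.5% lower. Of 8 genes of the calcium release unit of the sarcoplasmic reticulum, 7 rose and none fell in iCM with DMSO against CF, with a median log2 change of 2.90. Ryr2, the release channel, went from 2.97 and 3.84 CPM in CF to 293 and 268 CPM. Of 32 tested channel partners, such as anchors and modulators, 10 rose and 7 fell, with a median of 0.18. Rrad, an inhibitor of the L-type channel, went from 4.42 and 4.13 CPM in CF to 134 and 134 in iCM with DMSO and was 104 and 106 in CM. Fgf12, a modulator of sodium channels, was 133 and 132 CPM in CM and between 3.16 and 4.37 in the iCM libraries. Of the other Fgf genes listed, Fgf13 averaged 31.1 CPM in CM and 3.05 in DMSO iCM, and Fgf11 averaged 3.17 and 2.50. Fgf14 went the other way, averaging 1.89 CPM in CM, 47.8 in DMSO iCM, 37.3 with ZLN005, 35.1 with GW501516 and 40.5 in CF. Of 13 pumps and exchangers 4 rose and 3 fell, with a median of 0.09.

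Of 12 regulators of conduction, transcription factors that pattern nodal and working muscle, 4 rose and 3 fell in iCM with DMSO against CF. Of all tested genes, 19.9% rose and 19.5% fell between these groups. Tbx18, known for the sinus node, was 80.7 and 89.9 CPM in CF, 234 and 233 in DMSO iCM, and 64.6 and 69.7 in CM. Shox2, known for the same node, was 6.06 and 7.73 CPM in CF, 11 and 10.2 in DMSO iCM, and 2.59 and 3.30 in CM. Levels of Tbx18 and Shox2 above CM were thus already present in CF. Tbx3, another sinus node factor, was 2.20 and 2.10 CPM in CF, 3.85 and 2.94 in DMSO iCM, and 5.55 and 6.47 in CM. Isl1 stayed below 0.3 CPM in these groups. Nkx2-5 and Irx4, known for working muscle, were 31 and 28.4 CPM and 7.12 and 6.73 CPM in CM, and at most 0.521 and 0.0403 CPM in the iCM libraries.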

How the data were processed

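The deposited table holds raw counts per gene for 10 libraries of polyadenylated RNA. Per the submitters' processing notes, the authors used Trimmomatic 0.36, HISAT2, SAMtools and featureCounts of Subread 1.5.1 with build mm10. The annotation, the strand setting and the treatment of multiply mapped reads are not stated in the sources used here. Where exons of a member overlap another gene, its counts are therefore uncertain.

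Counts were scaled by TMM and fitted in edgeR 4.0.16 (R 4.3.3) with all 5 groups in 1 quasi-likelihood model over the 15740 genes that passed filterByExpr. Adjusted p-values follow Benjamini and Hochberg over all genes tested in a comparison, and a gene was called below 0.05. The method was tested on simulated data with known changes before use. Where a group held no counts, a fold is a bound from a floor of 3 counts over the group, and counting intervals cover counting error only. Levels per kilobase used the exon union of GENCODE M21.

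The members and lists were chosen with earlier results of these data known. Genes with values are the 30 cardiac current genes and, in each comparison, up to 6 called rises and 6 called falls of largest size without overlap between libraries and with at least 1 CPM in the higher group. Some of these genes are not reported here. Others named were chosen after their values were seen. Alternatives were DESeq2 1.42.0 with its Wald test, its size factors, no low-count filter, a replicate block, only the 2 groups compared, and each library left out. Figures were drawn with matplotlib 3.10.9 in Python 3.11.15.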

Additional observations from a re-analysis of the deposited data

How the results depend on the processing

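No channel gene called in a comparison changed direction there under any of the 15 alternatives. In iCM with DMSO against CF, 4 genes not called with all libraries were called higher without CF replicate 1 and lower without CF replicate 2. Their log2 changes were 1.59 and -2.13 for Kcnj10, 1.33 and -1.03 for Kcnab2, 2.20 and -0.68 for Kcnk13, and 1.43 and -0.55 for Kcnn4. Of the channel genes called, 60 of 73 kept their call under every alternative between CM and CF, 32 of 43 between iCM with DMSO and CF, and 58 of 65 between CM and iCM with DMSO. Between CM and ZLN005 this held for 55 of 66, and between CM and GW501516 for 53 of 62. The compound comparisons held less often, with 5 of 18 for ZLN005 and 4 of 18 for GW501516 against DMSO, and 1 of 5 between the compounds. Leaving out a library of a compared group leaves 1 library there. A call lost in such a fit cannot tell an unstable change from the lack of a replicate. Between ZLN005 and GW501516, 10 channel genes were called by DESeq2, 9 without the low-count filter and 14 with only the 2 groups compared, in place of 5. With only the 2 groups compared, all genes called numbered 4477 in place of 2437 for ZLN005, 4342 in place of 2323 for GW501516, and 2413 in place of 796 between the compounds. That fit leaves out the CF libraries, whose replicates differed most. Leaving out each library in turn gave 7 to 28 channel genes for ZLN005 against DMSO, 5 to 27 for GW501516 against DMSO and 2 to 15 between the compounds. Over all genes the same ranges were 1092 to 4271, 955 to 4212 and 344 to 2145. The share of channel genes called higher moved from 38.9% to 50% for ZLN005 with only the 2 groups compared, and the cause was not tested. Deviations of same-numbered libraries correlated between -0.04 and 0.06 over groups. Such values cannot decide whether same-numbered libraries share a preparation, since a small shared effect could be hidden by other differences. With the replicate block, 40 channel genes were called in iCM with DMSO against CF, 17 and 15 with ZLN005 and GW501516 against DMSO, 5 between the compounds, and 73, 65, 67 and 64 in CM against CF, DMSO, ZLN005 and GW501516. With 2 libraries a group, small changes in low genes could not be detected, and a missing call does not show that levels were alike.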
